A study of Mus musculus with 6 samples.

Results

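The genes described here are the chemokines and chemokine receptors of mouse islets. Members were the rows of the gene count table whose symbol is *Ccl*, *Cxcl*, *Ccr* or *Cxcr* followed by a number, together with *Cx3cl1*, *Cx3cr1*, *Xcl1*, *Xcr1* and *Ackr1* to *Ackr4*, and 52 of the 19342 genes in the table met this rule. They comprised 31 ligands and 21 receptors. Counts were high enough for testing in 27 members, 18 ligands and 9 receptors, among 14619 genes tested in all. The remaining 25 members had between 1 and 110 counts summed over all libraries.

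Islets came from FXR knockout mice, written FXR-/-, in which *Nr1h4*, the gene of the bile acid receptor FXR, is disrupted, and from wild type mice, written FXR+/+. All mice were 3 months old. The knockout is not limited to islets or beta cells by any label, the study describes its FXR knockout mice as C57Bl/6, and islets were released from the pancreas with collagenase P. Each genotype had 3 libraries of poly(A)-selected RNA, labelled here female 1 (F1), male 1 (M1) and male 2 (M2), with no further treatment given in the labels, which do not say how many mice went into each library. If the libraries were not from separate mice, the p-values below measure only technical spread.

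Chemokines are small secreted or membrane-tethered proteins that attract leukocytes along a gradient by binding receptors coupled to inhibitory G proteins. Inflammatory chemokines are induced by cytokines and NF-κB or interferon signalling and recruit neutrophils, monocytes and effector T cells, whereas homeostatic chemokines place lymphocytes and stem cells in tissues without inflammation. Atypical receptors bind chemokines without G protein signalling and scavenge or transport them. In islets, chemokines are known from autoimmune insulitis and from the macrophages that live within the islet.

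The libraries held 20629306 to 30139235 counts, of which the members took 83.8 to 151 in every 1000000. *Nr1h4* was at 14.2, 13.6 and 12.2 CPM (counts per 1000000 counts of the library after TMM normalization) in FXR+/+ F1, M1 and M2, and at 5.67, 7.63 and 5.81 CPM in FXR-/- F1, M1 and M2. The targeted gene was therefore lower in every FXR-/- library, with reads left in all of them (log2 fold change -1.07, SE 0.160, edgeR adjusted p = 0.217, and 0.0441 with the replicate number as a block). Values are given in the order F1, M1 and M2 throughout. Beta cell markers were abundant in all libraries, at 186000 to 271000 summed CPM over 8 genes (5 higher and 3 lower in FXR-/-, median log2 fold change 0.07). Libraries differed in other RNA. The 12 acinar markers summed to 39600 to 120000 CPM in FXR+/+ and 56400 to 137000 CPM in FXR-/- (12 of 12 higher, 0 at an unadjusted p under 0.05 in edgeR, median log2 fold change 0.44). The 8 immediate early genes (*Fos*, *Egr1*, *Atf3* and others), which are induced within minutes of cell stress or tissue handling, summed to 190 to 5000 CPM in FXR+/+ and 1150 to 6660 CPM in FXR-/- (7 higher and 1 lower, 0 at an unadjusted p under 0.05, median log2 fold change 0.15). The lowest immediate early level was in FXR+/+ M2 and the highest levels were in FXR+/+ M1 and FXR-/- M1. Each of the 8 genes of the beta cell list and each of the 12 genes of the acinar list was detected in every library.

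The promoters of 3 ligands that differ widely among the libraries are shown first, since they carry the binding motifs through which inflammatory chemokines are known to be induced. Promoter windows from RefSeq (GRCm38.p6) ran from 250 bases before to 50 bases after the gene start. They were matched by gene identifier for 39 of the 52 members and 19 of the 27 tested. Only the 250 bases before the start are printed, 5′ to 3′ in the direction of the gene, with matches in capitals. Capitals mark the NF-κB site (the κB consensus) in *Cxcl1* and *Cxcl2*, and in *Cxcl10* first the core of the interferon-stimulated response element (ISRE, GAAANNGAA) and then the κB consensus at 2 places.
Cxcl1 (chr5:90890995-90891244, plus strand): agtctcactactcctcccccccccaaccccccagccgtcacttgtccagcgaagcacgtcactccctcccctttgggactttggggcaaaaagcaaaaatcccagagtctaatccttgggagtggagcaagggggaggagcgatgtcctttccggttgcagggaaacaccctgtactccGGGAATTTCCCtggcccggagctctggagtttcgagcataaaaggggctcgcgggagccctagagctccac
Cxcl2 (chr5:90903649-90903898, plus strand): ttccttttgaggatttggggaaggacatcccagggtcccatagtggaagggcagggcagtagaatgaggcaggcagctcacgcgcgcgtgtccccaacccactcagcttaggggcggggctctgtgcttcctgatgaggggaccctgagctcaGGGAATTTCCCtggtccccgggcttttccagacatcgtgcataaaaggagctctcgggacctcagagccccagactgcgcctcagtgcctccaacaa
Cxcl10 (chr5:92348890-92349139, minus strand): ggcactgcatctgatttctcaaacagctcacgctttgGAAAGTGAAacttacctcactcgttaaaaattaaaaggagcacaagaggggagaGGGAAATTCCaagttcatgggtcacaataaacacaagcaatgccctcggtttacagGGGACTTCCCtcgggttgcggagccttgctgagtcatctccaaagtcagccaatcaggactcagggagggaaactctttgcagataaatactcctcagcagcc
*Cxcl1* and *Cxcl2*, 2 of the 4 neutrophil-attracting ligands, carried the identical κB match, between bases -71 and -61 from the start in *Cxcl1* and between -97 and -87 in *Cxcl2*. *Cxcl3*, which had 1 count in all, held a κB match between -73 and -63. In *Cxcl10* the ISRE core lay between -213 and -205 and the κB matches between -159 and -150 and between -103 and -94. Both strands were searched, and overlapping matches on the 2 strands were counted as 1. A κB match was present in the windows of 9 members and in 4.51% of 32851 promoter windows of all genes. The 4 tested members with a match were *Cxcl1*, *Cxcl2*, *Cxcl10* and *Ccl27a*. In *Ccl27a*, whose levels differ little among the libraries, it lay between bases 30 and 39 after a start of the gene. *Ccl3*, whose levels differ widely, had no κB match in its window. The ISRE core was present in 7 members, 6 of them tested (*Cxcl10*, *Cxcl9*, *Ccr2*, *Ccl3*, *Cxcl14* and *Ccl19*), and in 8.56% of all windows. A match is a description of letters and not a measured binding site.

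To see which chemokine genes islets express, levels were compared per kilobase of exon. The membrane-tethered ligand *Cx3cl1* (fractalkine), which binds *Cx3cr1* on macrophages and monocytes, had the highest mean level at 6.68 CPM per kb. *Ccl4* and *Ccl3*, inflammatory ligands made largely by macrophages and activated leukocytes, followed at 4.33 and 4.23 CPM per kb, and then the epithelial ligands *Ccl28* and *Ccl27a* at 3.85 and 3.51 CPM per kb. The RefSeq spans of *Ccl3* and *Ccl4* overlap on opposite strands of chromosome 11, so these genes may share reads. The order of levels was not the same in every library. Per kilobase, *Cx3cl1* ranged only from 4.41 to 8.39 CPM per kb, while *Ccl4* ranged from 0.239 to 13 and *Ccl3* from 0.206 to 9.34, so that neither can be ranked against *Cx3cl1*, *Ccl28* or *Ccl27a* beyond its spread. Among receptors *Cxcr4*, the receptor of *Cxcl12*, had the highest mean at 3.18 CPM per kb, followed by the scavenger of *Cxcl12*, *Ackr3*, at 1.73 and by *Cx3cr1* at 1.34 CPM per kb. Reads of *Ccl27a* and *Ccl19* may be shared with near-identical copies (98.8% identity to *Ccl27b* and 98.9% to *Gm2564* in the aligned part). Their values are therefore uncertain. *Ccl27a* also overlaps *Il11ra1*. Of its 358 exon counts, 270 lay in the exon at chr4:41772895-41773350. Its last exon held 3.63% of them on 12.6% of the exon bases, while that of *Cx3cl1* held 99.7% and that of *Ccl28* 99.5%.

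**Figure D1:**
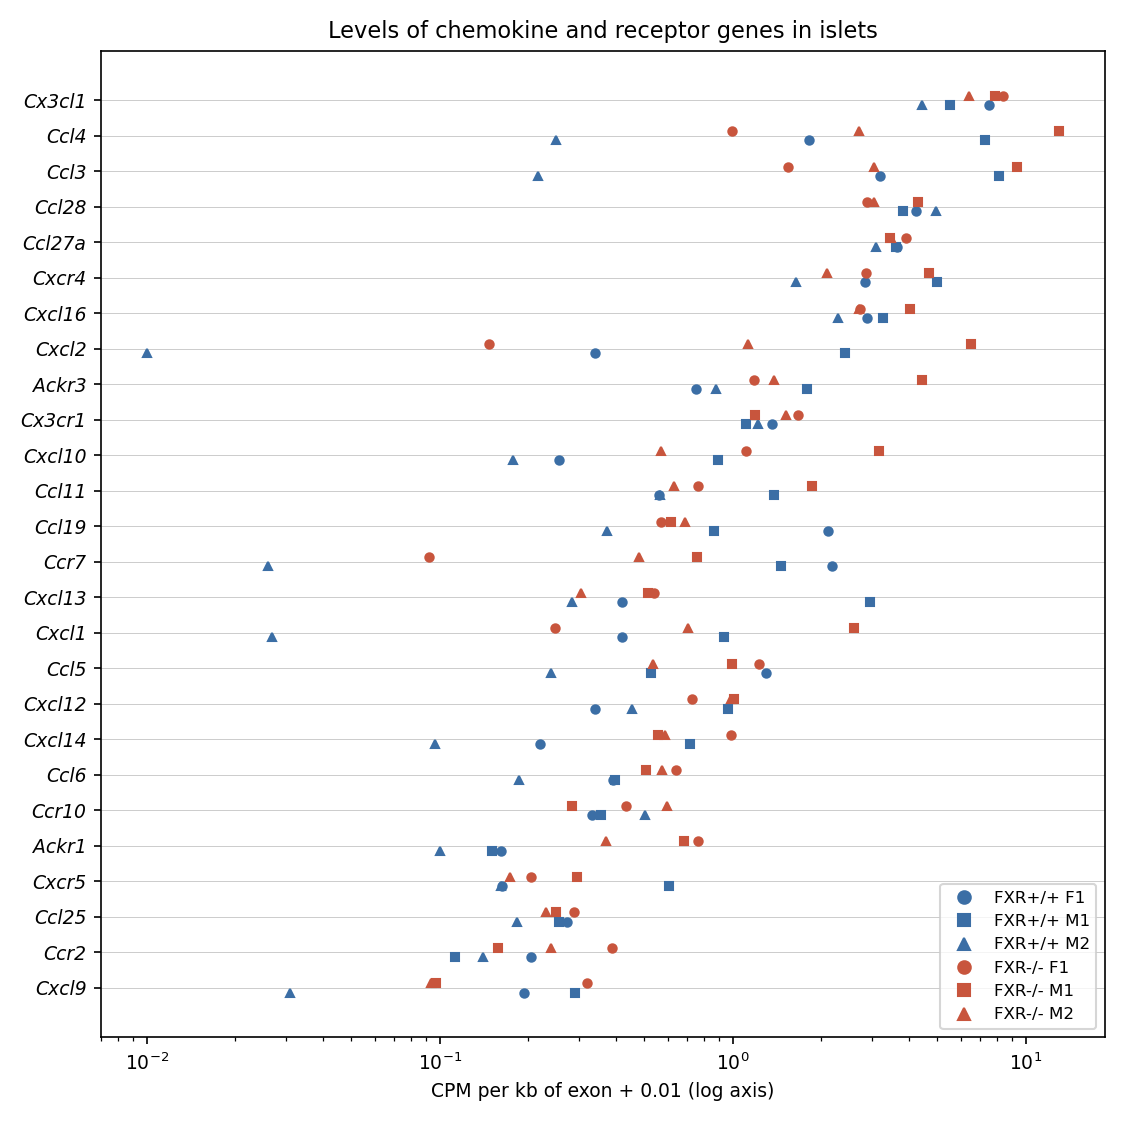
Levels of tested members in CPM per kilobase of exon plus 0.01 (log axis), 1 point per library, with FXR+/+ in blue and FXR-/- in red, and circles for F1, squares for M1 and triangles for M2. *Cx3cl1*, *Ccl28* and *Ccl27a* are tightly placed. *Cxcl2*, *Ccl3*, *Ccl4*, *Ccr7*, *Cxcl1*, *Cxcl10*, *Cxcl9*, *Cxcl13* and *Cxcl14* spread over more than 10-fold, with FXR+/+ M2 at the low end.

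The spread between libraries of one kind was large for chemokines. The biological coefficient of variation from edgeR was 37.3% in the median tested member and 12.7% in the median gene, and it lay above the trend for genes of like abundance in 19 of 27 members, against 21.4% of all genes tested. It was highest for *Cxcl2* (110%), *Ccr7* (96.2%), *Cxcl1* (84.9%), *Ccl4* (81.8%) and *Ccl3* (80.2%), and low for *Cx3cl1* (13.3%), *Ccl27a* (13.1%), *Ccl28* (15.4%) and *Cx3cr1* (15.9%). The constitutive ligands and the macrophage receptor were thus measured with a precision that the inflammatory ligands were not.

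The comparison of FXR-/- with FXR+/+ asks which transcripts differ in islets without FXR. No member passed an adjusted p of 0.05 in edgeR's quasi-likelihood test with terms for sex and genotype, and neither did any other gene (0.0% of 14619 genes). DESeq2 called 177 genes (1.21%) and also 0 members. At an unadjusted p under 0.05, 5 of 27 members (18.5%) passed, against a background of 10.3% of all genes tested, and all 5 were higher in FXR-/-: *Ackr1*, *Cx3cl1*, *Ccr2*, *Cxcl10* and *Cxcl12*. DESeq2 gave 5 members at this level as well (background 9.1% of genes), with *Ackr3* in place of *Ccr2*. *Ackr1* had passed the filter on low counts only through its FXR-/- libraries, which favoured a higher level there. With at least 10 counts required in every library, *Ackr1* was not tested, and 5 of 16 members had an unadjusted p under 0.05 in edgeR (background 10.7%). Of the tested members 22 had a higher fitted level in FXR-/- (81.5%, against 51.6% of all genes tested), and the median log2 fold change was 0.27, against 0.008 over all genes. This lean rested in part on 1 library: 20 of the 27 members (74.1%) had their lowest level in FXR+/+ M2, against 23.3% of all genes, and the median fell to 0.08 without that library. It was 0.12 without FXR-/- M1 and 0.60 without FXR+/+ M1. With scaling by library size alone, the median was 0.18 in members and -0.087 over all genes.

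Libraries with the same number in the 2 genotypes deviated together, so the genotypes were also compared within pairs. The labels give the numbers but not what they mark, so this pairing rests on these same data and is not a known part of the design. With the replicate number as a block, 0.157% of all genes passed an adjusted p of 0.05 (23 genes), and among members *Cxcl10* did. At an unadjusted p under 0.05, 9 members passed in the paired fit, against 16.1% of all genes: *Cxcl10*, *Ackr3*, *Ackr1*, *Cx3cl1*, *Cxcl12*, *Ccr2*, *Cxcl2*, *Ccl6* and *Cxcl14*, all higher in FXR-/-. By direction alone, 9 members were higher in FXR-/- in all 3 pairs (background 20.4% of genes) and 0 were lower in all 3 (background 18.9%). Genotypes did not overlap in 2 members, *Ackr1* and *Ccl6*, both higher in FXR-/- (background 8.02%), and in 0 members with lower levels (background 7.37%). An exact permutation test of 3 against 3 libraries, two-sided, gave p = 0.1 for each, the smallest it can give. *Ackr1*, counted at each of these steps, had entered the test only through its FXR-/- libraries.

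**Figure D2:**
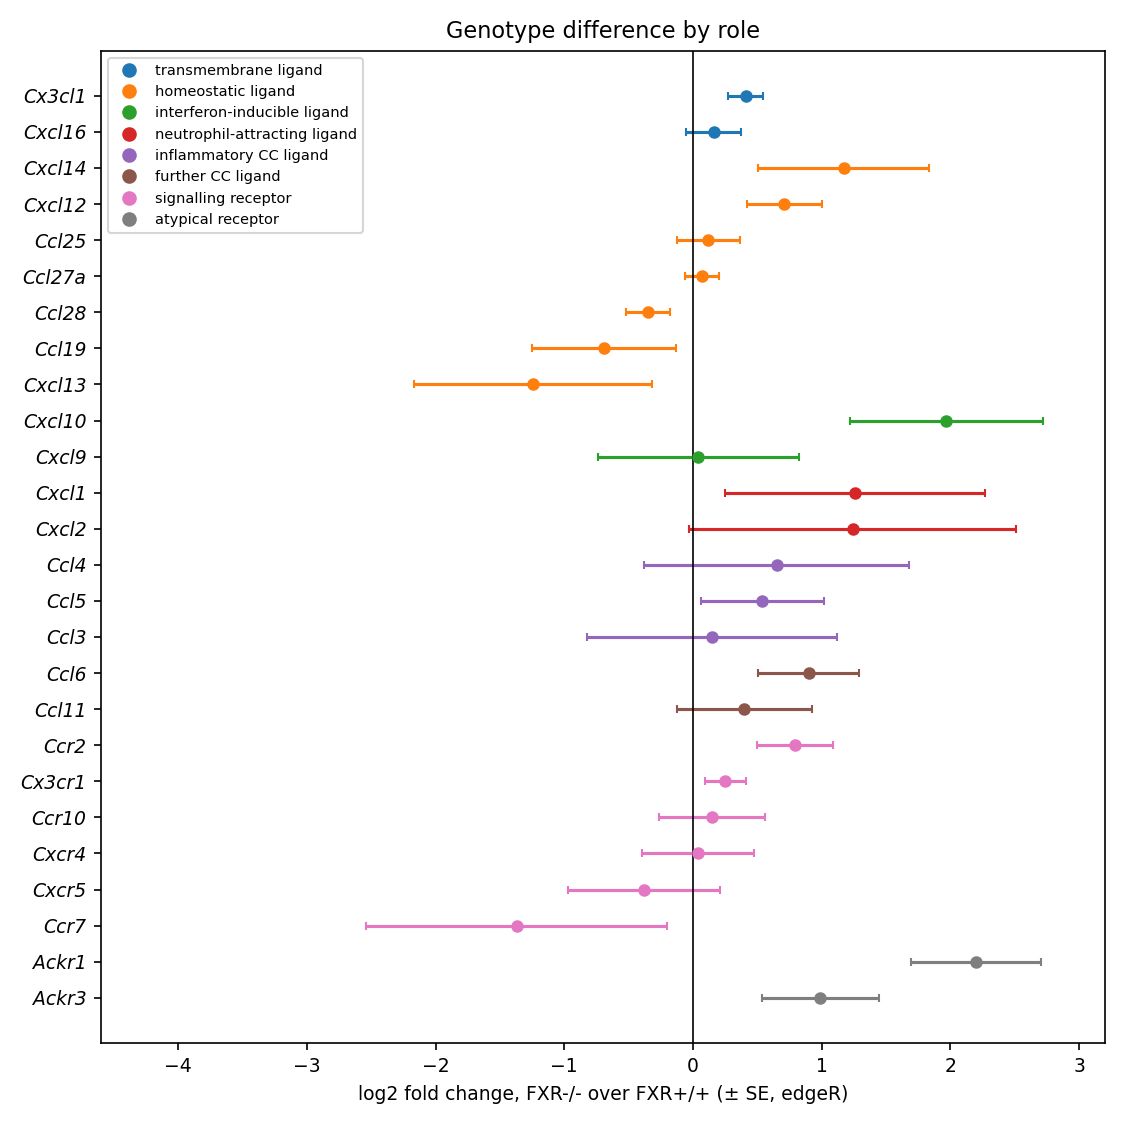
Log2 fold change of tested members, FXR-/- over FXR+/+, with its standard error from edgeR, coloured by role. Points right of 0 are higher in FXR-/-, and the widest bars belong to *Cxcl2* and *Ccr7*.

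Of the interferon-inducible ligands, *Cxcl10* was higher in FXR-/- in each pair and passed the test within pairs. It encodes a ligand of *Cxcr3* that attracts activated T cells and natural killer cells. *Cxcl10* was at 0.554, 1.98 and 0.379 CPM in FXR+/+ F1, M1 and M2, and at 2.47, 7.10 and 1.26 CPM in FXR-/- F1, M1 and M2. The genotypes overlapped, because FXR+/+ M1 lay above FXR-/- M2, but each FXR-/- library was above its FXR+/+ partner, by 4.46-fold, 3.58-fold and 3.33-fold. The log2 fold change was 1.97 (SE 0.749, edgeR adjusted p = 0.458), and within pairs it was 1.90 (SE 0.243, edgeR adjusted p = 0.0441). Over all alternatives the log2 fold change ran from 1.0, without FXR-/- M1, to 2.86, without FXR+/+ M1. The genotype means were 0.972 ± 0.880 CPM in FXR+/+ and 3.61 ± 3.08 CPM in FXR-/- (SD, n = 3). The gene lies at chr5:92346638-92348889 on the minus strand in the RefSeq annotation of GRCm38, and its last exon, with 77.5% of the exon bases, held 92.8% of the exon counts. *Cxcl10* overlaps the gene *Art3*, and since no source used here states whether counting used strand, reads of the 2 genes cannot be told apart. *Cxcl9*, a further *Cxcr3* ligand, was at 0.554, 0.843 and 0.0631 CPM in FXR+/+ and 0.932, 0.263 and 0.252 CPM in FXR-/-, with no shared direction in the pairs. *Cxcl11* and the receptor *Cxcr3* had 7 and 21 counts in all and were not tested. All 10 interferon-stimulated genes of a marker list (*Irf7*, *Isg15*, *Ifit1* and others) were higher in FXR-/-, 4 with an unadjusted p under 0.05 and 0 with an adjusted p under 0.05 in edgeR (median log2 fold change 0.79). Within pairs 3 of them passed an adjusted p of 0.05, *Oas2* (0.0175), *Rsad2* (0.0441) and *Cmpk2* (0.0441), again in edgeR. *Isg15* and *Ifi44* also rose in each pair, but the rest of the list did not. *Ifit3* was at 2.22, 4.11 and 4.1 CPM in FXR+/+ and at 11.8, 3.31 and 2.23 CPM in FXR-/-, higher only in the F1 pair. *Irf7*, *Ifit1* and *Mx1* were lower in FXR-/- M2 than in its partner, and *Usp18* was lower in FXR-/- M1. The list summed to 73.1 to 88.7 CPM in FXR+/+ and 113 to 176 CPM in FXR-/-. The highest sum was in FXR-/- F1, while *Cxcl10* was highest in FXR-/- M1. Their part in the *Cxcl10* difference was not tested.

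**Figure D3:**
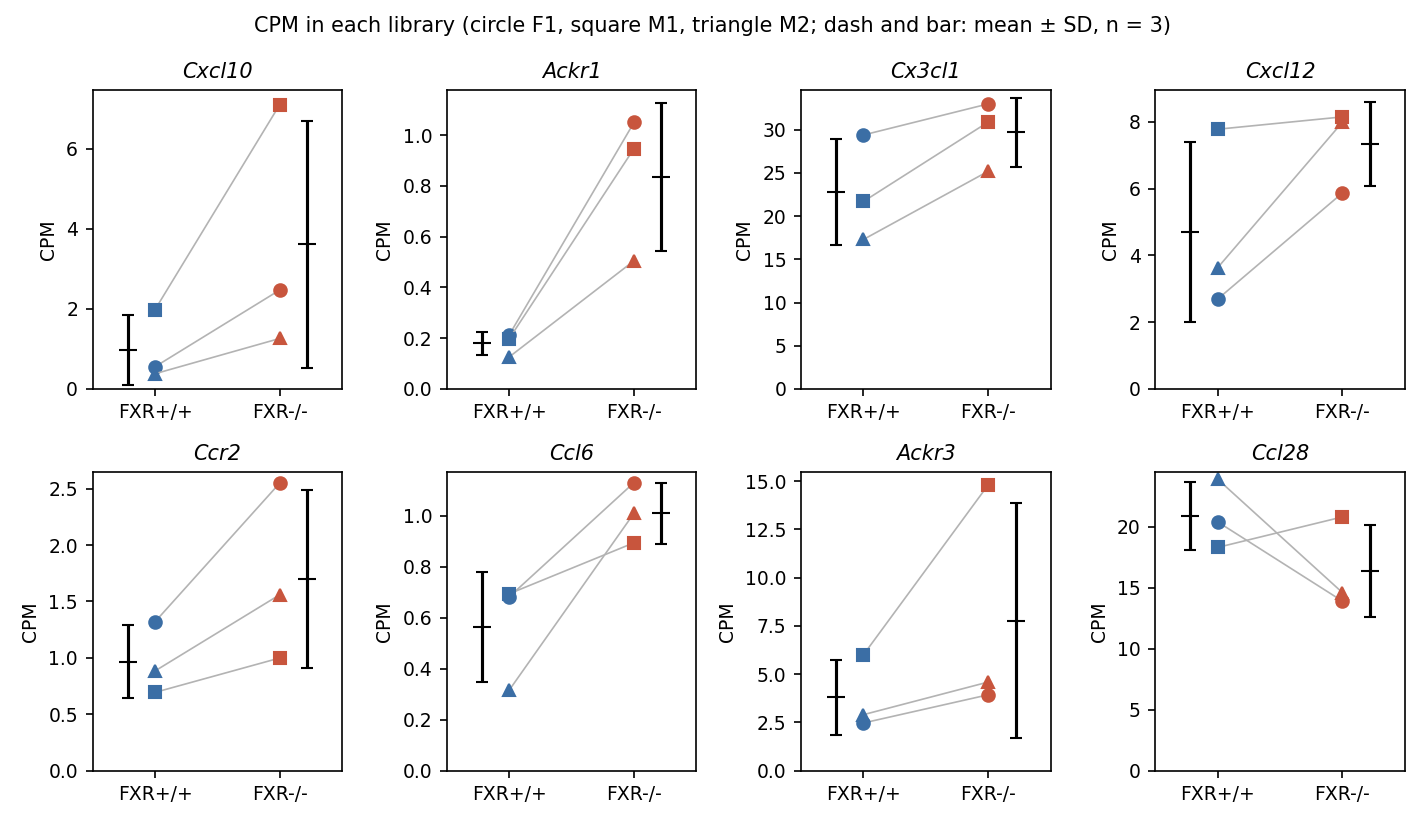
CPM of 8 members in each library, with a line joining libraries of the same number, and the mean ± SD (n = 3) of each genotype beside its points. Every line goes up for *Cxcl10*, *Ackr1*, *Cx3cl1*, *Cxcl12*, *Ccr2*, *Ccl6* and *Ackr3*, while for *Ccl28* the M1 line goes the other way from F1 and M2.

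*Ackr1*, the Duffy antigen receptor, is an atypical receptor known on venular endothelium and erythroid cells, where it moves or buffers inflammatory chemokines. Its reads were few: FXR+/+ F1, M1 and M2 gave 5, 4 and 4 of them and FXR-/- F1, M1 and M2 gave 26, 18 and 12, which was 0.213, 0.198 and 0.126 CPM against 1.05, 0.947 and 0.505 CPM. Every FXR-/- library was above every FXR+/+ library, at 4.94-fold, 4.78-fold and 4.0-fold of its partner (log2 fold change 2.20, SE 0.508, edgeR adjusted p = 0.310; 0.115 with the block). In the fit without the block this was the lowest adjusted p among members. The means were 0.179 ± 0.0464 CPM in FXR+/+ and 0.835 ± 0.291 CPM in FXR-/- (SD, n = 3), and the gene lies at chr1:173331886-173333503 on the minus strand (RefSeq, GRCm38). *Ackr1* passed the filter on low counts only through its FXR-/- libraries, so it entered the test because it was high there, and it overlaps *Cadm3*. All 7 endothelial markers (*Pecam1*, *Cdh5*, *Plvap* and others) were also higher in FXR-/-, 6 with an unadjusted p under 0.05 and 0 with an adjusted p under 0.05 (median log2 fold change 0.59), with sums of 460 to 545 CPM in FXR+/+ and 578 to 916 CPM in FXR-/-. Per 1000 endothelial counts, *Ackr1* stood at 0.447, 0.364 and 0.275 counts in the FXR+/+ libraries and at 1.82, 1.03 and 0.803 in the FXR-/- libraries. In whole islets, more cells of a type and more RNA per cell cannot be told apart.

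*Ackr3*, which scavenges *Cxcl12*, was at 2.47, 6.0 and 2.90 CPM in FXR+/+ and at 3.93, 14.8 and 4.59 CPM in FXR-/-. It was higher in FXR-/- in each pair, but FXR+/+ M1 exceeded 2 of the FXR-/- libraries (log2 fold change 0.99, SE 0.456, edgeR adjusted p = 0.487; 0.0919 with the block). Without FXR-/- M1 the log2 fold change of *Ackr3* was 0.31. Its ligand *Cxcl12*, a homeostatic chemokine made by stromal and endothelial cells, was at 2.69, 7.78 and 3.63 CPM in FXR+/+ and 5.87, 8.15 and 7.99 CPM in FXR-/-. The pair of M1 libraries differed by 1.05-fold, and the other pairs by 2.19-fold and 2.20-fold (log2 fold change 0.71, SE 0.290, edgeR adjusted p = 0.477). The signalling receptor *Cxcr4*, in contrast, was at 5.07, 9.02 and 2.97 CPM in FXR+/+ and at 5.14, 8.47 and 3.79 CPM in FXR-/-. Its FXR-/- libraries stood at 1.01-fold, 0.939-fold and 1.28-fold of their partners (log2 fold change 0.04, SE 0.435, edgeR adjusted p = 0.977), with the highest level in the 2 M1 libraries. Beside *Cxcl12* and *Ackr3* stood the fibroblast and stellate markers, of which all 7 were higher in FXR-/- with 0 at an unadjusted p under 0.05 (median log2 fold change 0.87; 42.3 to 150 CPM in FXR+/+ and 119 to 144 CPM in FXR-/-), and the endothelial markers given above. Their part in the difference was not tested.

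The membrane-tethered ligand *Cx3cl1* had the most reads of all members (22.8 ± 6.12 CPM in FXR+/+ and 29.7 ± 4.0 CPM in FXR-/-, SD, n = 3). Its levels were 29.4, 21.7 and 17.3 CPM in FXR+/+ and 33.0, 30.9 and 25.2 CPM in FXR-/-, 1.12-fold, 1.43-fold and 1.46-fold higher in the FXR-/- partner. FXR+/+ F1 lay above FXR-/- M2, so the genotypes overlapped (log2 fold change 0.41, SE 0.138, edgeR adjusted p = 0.445; 0.149 with the block). The receptor *Cx3cr1*, found on resident macrophages, was at 6.09, 4.96 and 5.46 CPM in FXR+/+ and at 7.49, 5.31 and 6.82 CPM in FXR-/- (log2 fold change 0.25, SE 0.159, edgeR adjusted p = 0.568). Ligand and receptor leaned the same way in each pair. *Cxcl16*, the other transmembrane ligand, ranged from 6.88 to 9.86 CPM in FXR+/+ and from 8.12 to 12.1 CPM in FXR-/-, and its receptor *Cxcr6* had 52 counts in all and was not tested. Some reads of *Cxcl16* may belong to the overlapping gene *Zmynd15*.

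Among receptors of monocytes, *Ccr2*, which binds *Ccl2* and brings monocytes into tissue, was at 1.32, 0.694 and 0.884 CPM in FXR+/+ and at 2.55, 0.999 and 1.56 CPM in FXR-/-. It was higher in FXR-/- by 1.93-fold, 1.44-fold and 1.76-fold in the pairs, with overlapping genotypes (log2 fold change 0.79, SE 0.295, edgeR adjusted p = 0.457; 0.231 with the block). Its ligands were scarce. *Ccl2*, *Ccl7*, *Ccl8* and *Ccl12* had 42, 12, 8 and 39 counts in all and were not tested. *Ccl6*, a macrophage chemokine, was at 0.682, 0.694 and 0.316 CPM in FXR+/+ and at 1.13, 0.894 and 1.01 CPM in FXR-/-, without overlap (log2 fold change 0.90, SE 0.391, edgeR adjusted p = 0.480). Of 8 macrophage markers 6 were higher in FXR-/-, 4 with an unadjusted p under 0.05 and 0 with an adjusted p under 0.05 (median log2 fold change 0.34; 111 to 150 CPM in FXR+/+ and 148 to 175 CPM in FXR-/-). Of the 3 tested dendritic cell markers, all were higher, 1 with an unadjusted p under 0.05 (median log2 fold change 0.42; 8.74 to 11.4 CPM in FXR+/+ and 10.7 to 15.9 CPM in FXR-/-). Their part in these differences was not tested.

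The inflammatory ligands *Cxcl1*, *Cxcl2*, *Ccl3* and *Ccl4* differed far more between libraries of 1 genotype than between genotypes. *Cxcl2*, which draws neutrophils through *Cxcr2*, was at 0.682, 4.96 and 0.0 CPM in FXR+/+ F1, M1 and M2 and at 0.284, 13.5 and 2.31 CPM in FXR-/- F1, M1 and M2. The 0 counts in FXR+/+ M2, the deepest library, allow up to 0.0947 CPM (3 counts, counting error only). *Cxcl1* had the same order of libraries, at 0.767, 1.73 and 0.0316 CPM in FXR+/+ and at 0.446, 4.84 and 1.30 CPM in FXR-/-. Both ligands were highest in FXR-/- M1, then in FXR+/+ M1, and lowest in FXR+/+ M2. *Ccl4* was at 1.19, 4.81 and 0.158 CPM in FXR+/+ and at 0.648, 8.57 and 1.77 CPM in FXR-/-. *Ccl3* was at 2.43, 6.19 and 0.158 CPM in FXR+/+ and at 1.17, 7.15 and 2.31 CPM in FXR-/-. In all 4 ligands the female FXR-/- library lay below the female FXR+/+ library and both male pairs went the other way, so that no pair direction was shared.

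The genotype fits of these ligands were accordingly wide. The log2 fold change was 1.26 for *Cxcl1* (SE 1.01, edgeR adjusted p = 0.630), 1.24 for *Cxcl2* (SE 1.27, adjusted p = 0.705), 0.65 for *Ccl4* (SE 1.03, adjusted p = 0.818) and 0.15 for *Ccl3* (SE 0.973, adjusted p = 0.960). Leaving out FXR-/- M1 turned *Cxcl2*, *Ccl3* and *Ccl4* to -0.32, -0.65 and -0.57, and leaving out FXR+/+ M2 turned *Ccl3* and *Ccl4* to -0.61 and -0.15. *Cxcl1* was at 0.20 without FXR-/- M1 and at 0.39 without FXR+/+ M2, and *Cxcl2* at 0.38 without the latter. Beside them, the immediate early genes summed to 2840, 5000 and 190 CPM in FXR+/+ F1, M1 and M2 and 1150, 6660 and 2630 CPM in FXR-/- F1, M1 and M2. The 2 highest libraries and the lowest library of that sum were also those of 7 members (*Cxcl1*, *Cxcl2*, *Ccl3*, *Ccl4*, *Cxcl16*, *Cxcr4* and *Cxcr5*), an order held by 4.77% of all genes tested. The acinar markers too were highest in the 2 M1 libraries and lowest in FXR+/+ M2. Cytokines that induce these ligands had the same extremes in part: *Tnf* was highest in FXR-/- M1 at 6.47 CPM and lowest in FXR+/+ M2 at 0.0631 CPM, and *Il1b* was highest in FXR+/+ M1 at 11.5 CPM and lowest in FXR+/+ M2 at 0.852 CPM. With a term for immediate early RNA, added after the values were seen, the log2 fold changes were 1.02 for *Cxcl1*, 0.92 for *Cxcl2*, 0.30 for *Ccl4*, -0.03 for *Ccl3* and 1.57 for *Cxcl10*, and no member passed an adjusted p of 0.05 in edgeR. Neutrophil markers stayed low, at 0.600 to 1.59 CPM in FXR+/+ and 1.13 to 3.11 CPM in FXR-/- summed over 4 genes. *S100a8*, *S100a9* and *Retnlg* were at 0 in at least 1 library, and *Csf3r*, the 1 tested, was at a log2 fold change of 0.16. In FXR-/- M2, *S100a8* and *S100a9* reached 17 and 37 counts, against 5 or fewer in every other library. *Cxcr2*, the receptor of *Cxcl1* and *Cxcl2*, had 1 count in all. The part of immediate early or acinar RNA in these ligands was not tested further.

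**Figure D4:**
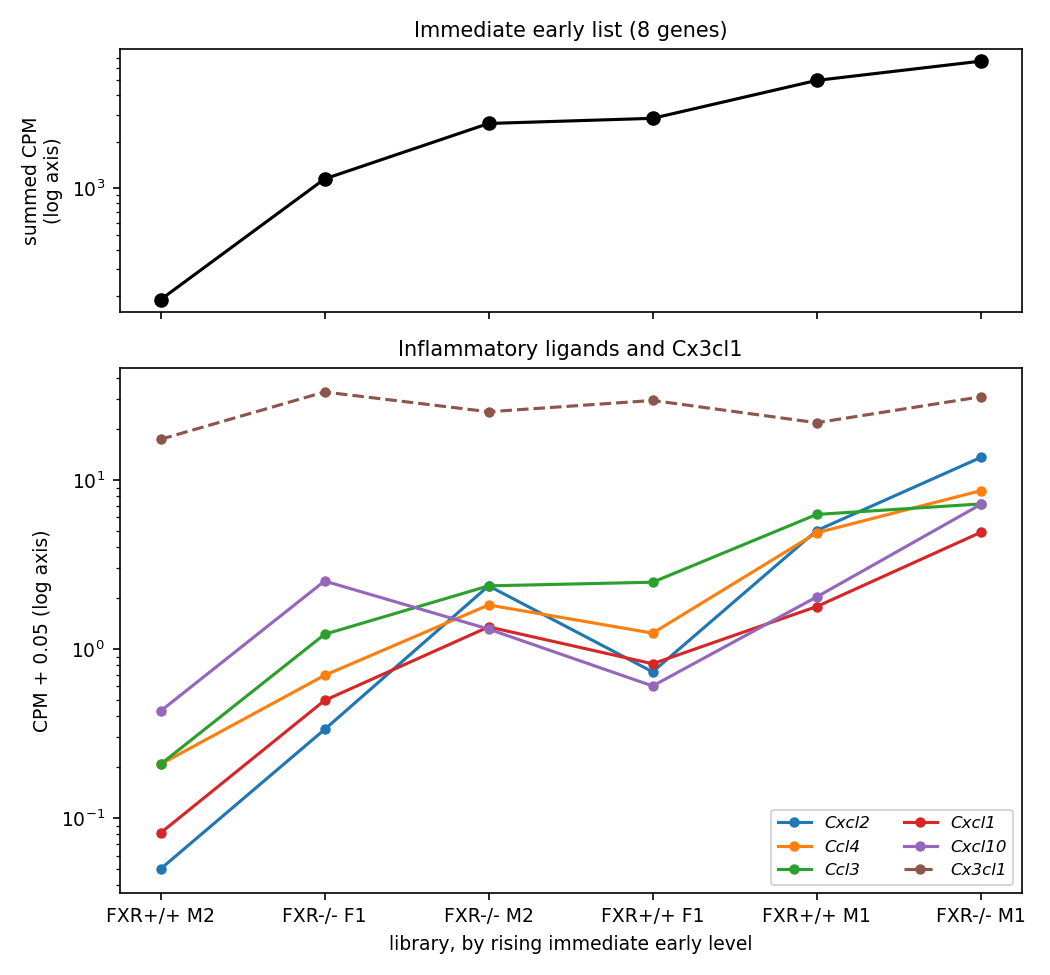
Summed CPM of 8 immediate early genes (top, log axis) and CPM plus 0.05 of 5 inflammatory ligands and *Cx3cl1* (bottom, log axis), with the 6 libraries placed by rising immediate early level. *Cxcl2*, *Ccl4*, *Ccl3* and *Cxcl1* are lowest in FXR+/+ M2 and highest in FXR-/- M1, *Cxcl10* is also high in FXR-/- F1, and *Cx3cl1* stays between 17.3 and 33.0 CPM.

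*Ccl5*, which attracts T cells and eosinophils, was at 1.24, 0.496 and 0.221 CPM in FXR+/+ and at 1.17, 0.947 and 0.505 CPM in FXR-/- (log2 fold change 0.54, SE 0.475, edgeR adjusted p = 0.663). The female libraries had the highest levels in both genotypes. Of the other inflammatory or further CC ligands, the eosinophil attractant *Ccl11* ranged from 0.597 to 1.49 CPM in FXR+/+ and from 0.673 to 2.00 CPM in FXR-/-.

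The homeostatic ligands showed no common direction, with 4 higher and 3 lower in FXR-/- (median log2 fold change 0.07). *Ccl28*, a mucosal ligand made by epithelium, was at 20.4, 18.3 and 23.9 CPM in FXR+/+ and at 13.9, 20.8 and 14.6 CPM in FXR-/-. It was lower in 2 FXR-/- libraries and higher in FXR-/- M1 than in its partner (log2 fold change -0.35, SE 0.169, edgeR adjusted p = 0.491). Its receptor *Ccr10* ranged from 0.554 to 0.852 CPM in FXR+/+ and from 0.473 to 1.01 CPM in FXR-/- (log2 fold change 0.15, SE 0.413, edgeR adjusted p = 0.901). *Ccl27a*, a skin chemokine that shares this receptor, was the steadiest member, with the limits on its reads given above. It lay between 7.29 and 8.65 CPM in FXR+/+ and between 8.15 and 9.24 CPM in FXR-/- (log2 fold change 0.07, SE 0.130, edgeR adjusted p = 0.852). *Cxcl14*, made by epithelium and fibroblasts, was at 0.384, 1.29 and 0.158 CPM in FXR+/+ and at 1.78, 0.999 and 1.05 CPM in FXR-/-. Here the M1 pair went against the others, and the genotypes overlapped (log2 fold change 1.17, SE 0.668, edgeR adjusted p = 0.538). The log2 fold change of *Cxcl14* was 2.40 without FXR+/+ M1, 0.68 without FXR+/+ M2 and 0.64 in males alone. *Ccl25*, a thymic and gut ligand, ranged from 1.29 to 1.96 CPM in FXR+/+ and from 1.64 to 2.07 CPM in FXR-/-, and it overlaps *Elavl1*.

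A few members of lymphoid tissue had their highest level in FXR+/+ F1 or FXR+/+ M1. *Ccr7*, which guides dendritic cells and naive T cells to lymph nodes, was at 4.30, 2.87 and 0.0316 CPM in FXR+/+ F1, M1 and M2 and at 0.162, 1.47 and 0.926 CPM in FXR-/- F1, M1 and M2 (log2 fold change -1.37, SE 1.17, edgeR adjusted p = 0.655). Its ligand *Ccl19* was highest in the same library, at 1.83, 0.743 and 0.316 CPM in FXR+/+ against 0.486, 0.526 and 0.589 CPM in FXR-/- (log2 fold change -0.69, SE 0.558, edgeR adjusted p = 0.636). *Ccl22*, a ligand of *Ccr4* made by mature dendritic cells and singled out here after its values were seen, had 87 counts in FXR+/+ F1, 5 and 1 in FXR+/+ M1 and M2, and 7, 5 and 5 in FXR-/- F1, M1 and M2. FXR+/+ F1 was thus the highest library for *Ccr7*, *Ccl19* and *Ccl22*. In the fit without FXR+/+ F1, the log2 fold change was 0.16 for *Ccl19* and -0.17 for *Ccr7*. The sex term of that fit took up FXR-/- F1, the only female library left, so both female libraries dropped out. Males alone gave 0.16 and -0.18. The part of FXR+/+ F1 by itself cannot be read from this fit. T cell markers summed to 5.46, 4.66 and 1.04 CPM in FXR+/+ and 3.04, 1.53 and 1.64 CPM in FXR-/-, with all 3 tested genes lower in FXR-/- and 0 at an unadjusted p under 0.05 (median log2 fold change -0.78).

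*Cxcl13*, which organises B cell follicles, and its receptor *Cxcr5* had their highest levels in FXR+/+ M1. *Cxcl13* was at 0.469, 3.37 and 0.316 CPM in FXR+/+ and at 0.608, 0.579 and 0.337 CPM in FXR-/- (log2 fold change -1.24, SE 0.925, edgeR adjusted p = 0.611), and without FXR+/+ M1 its log2 fold change was 0.43. *Cxcr5* was at 0.511, 1.98 and 0.505 CPM in FXR+/+ and at 0.648, 0.947 and 0.547 CPM in FXR-/-. Some reads of *Cxcr5* may belong to the overlapping gene *Bcl9l*. The B cell marker *Ms4a1* reached 97 counts in FXR+/+ M1 and stayed at 10 or fewer elsewhere. The B cell list summed to 26.3, 49.0 and 20.6 CPM in FXR+/+ and 25.3, 16.4 and 15.5 CPM in FXR-/-, with both tested genes lower in FXR-/-, 1 of them at an unadjusted p under 0.05 (median log2 fold change -0.86). The part of B cells in the *Cxcl13* and *Cxcr5* values was not tested.

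**Figure D5:**
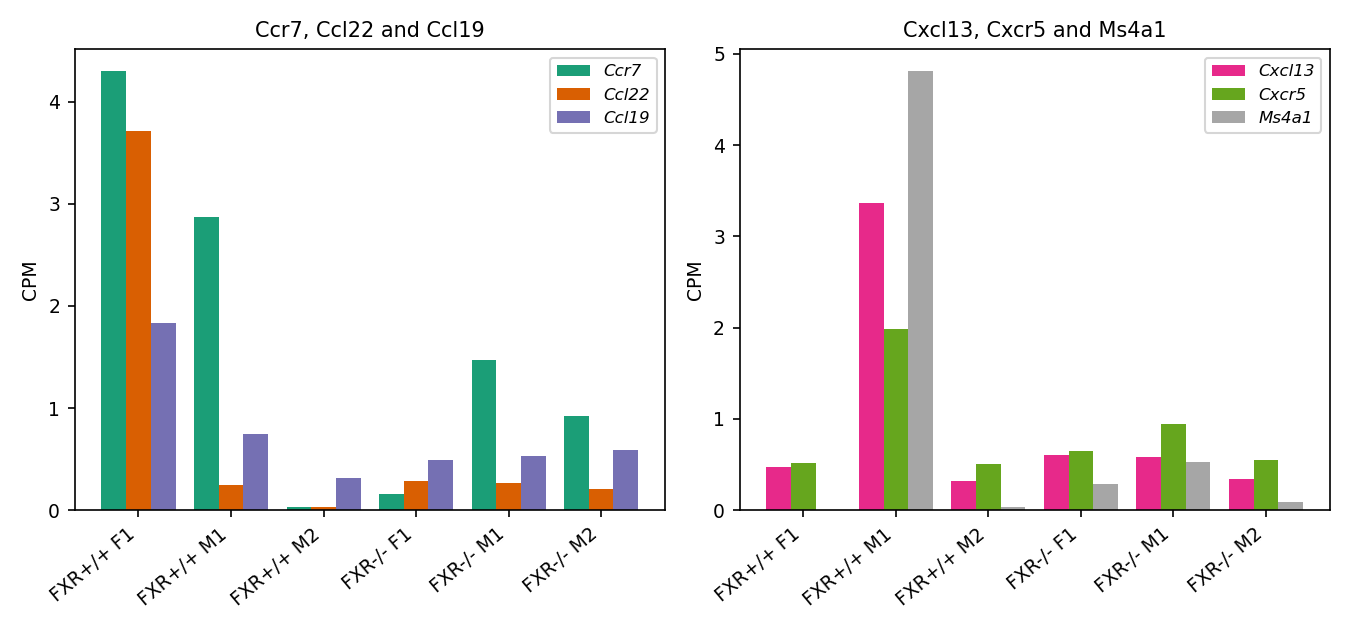
CPM of *Ccr7*, *Ccl22* and *Ccl19* (left) and of *Cxcl13*, *Cxcr5* and the B cell marker *Ms4a1* (right) in each library, with 1 bar per gene. The first set peaks in FXR+/+ F1 and the second in FXR+/+ M1.

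The 25 members that were not tested did not pass the filter on low counts, and 16 of them had under 10 counts in every library. Besides *Ccl22* they included *Ccl9* (58 counts in all), *Ackr2* (50), *Ccr1* (41), *Ccr9* (35), *Ackr4* (27), *Xcr1* (19) and *Cxcl5* (17, of which 11 in FXR-/- M1). *Ccr3*, *Ccr4* and *Ccr6* had 9 counts each, *Xcl1* 8, *Ccl17* 6, *Cxcl17* 4 and *Ccr8* 3, and *Ccl1* and *Cxcl3* had 1 count each. With no filter, all 52 members were fitted, and 9 had an unadjusted p under 0.05 in edgeR (8.76% of the 19342 genes) with 0 adjusted. At such counts the values of these genes are imprecise.

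Between the sexes, 0 of 27 members passed an adjusted p of 0.05 in edgeR, where 0.0547% of all genes did. At an unadjusted p under 0.05, 3 members did (background 7.48%), all higher in the female libraries, with 1 female per genotype: *Ccr2* (log2 fold change, female over male, 0.86), *Cx3cl1* (0.42) and *Ccl5* (1.25). No member had an unadjusted p under 0.05 for the interaction of genotype and sex (background 1.48% of genes), and the lowest was that of *Ccl19* at 0.0769 in edgeR. With 1 female library per genotype this difference was poorly resolved.

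Around the members, other genes of the pathway were read from the same fit, and 0 of them passed an adjusted p of 0.05 in edgeR. Of 7 tested genes among further chemokine system genes, 6 were higher and 1 lower in FXR-/-, and 1 had an unadjusted p under 0.05: *Rarres2*, the chemerin precursor (1.41, 1.69 and 1.29 CPM in FXR+/+ against 2.43, 2.52 and 2.27 CPM in FXR-/-, log2 fold change 0.73, SE 0.230, edgeR adjusted p = 0.430). The list of receptor signalling genes (G protein subunits, arrestins, kinases and effectors such as *Rac2*) was split, with 9 higher and 11 lower of 20 and 0 at an unadjusted p under 0.05 (median log2 fold change -0.02). Of 18 tested inducers (cytokines, NF-κB and interferon signalling genes), 15 were higher and 3 lower, and 1 had an unadjusted p under 0.05, the receptor *Tnfrsf1a* (log2 fold change 0.38, SE 0.117, edgeR adjusted p = 0.430). Ductal markers (3 higher and 1 lower of 4, 2 at an unadjusted p under 0.05) and lymphatic endothelial markers (2 higher and 1 lower of 3, 1 at an unadjusted p under 0.05) had median log2 fold changes of 0.48 and 0.09.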

How the data were processed

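The data are gene counts that the authors deposited for islet RNA-seq, 3 libraries of each FXR genotype, as whole numbers without normalization. The submitters' processing notes name HISAT. The aligner version, counter, strand setting and annotation were not given in the sources used here. Counts per exon were deposited as well (139263 exons, 32.3% to 36.6% of the gene counts) and served as an alternative. The authors' comparison tables, with fold changes and p-values from DESeq, were not used.

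Testing of the gene counts used edgeR 4.0.16 in R 4.3.3 (filterByExpr by genotype with a minimum count of 10 and a minimum total of 15, TMM, glmQLFit and glmQLFTest, terms for sex and genotype), with p-values adjusted over all 14619 genes tested by Benjamini-Hochberg. Standard errors came from the F statistic. CPM are counts scaled to 1000000 per library after TMM, and levels per kb used the exon union of GENCODE vM21. For permutation tests, 0.01 was added to CPM before taking log2, and all 20 relabellings were enumerated. The procedure was tested on simulated data. The alternatives were DESeq2 1.42.0, fits without sex or with the replicate block, males alone, other scalings and filters, exon counts and an acinar term. An immediate early term, added after the values were seen, and each library left out in turn were further alternatives. With 1 female library left out, the sex term took up the other, so the genotype term of that fit rested on the male libraries.

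Deviations of same-numbered libraries from their genotype means correlated at 0.373 (F1), 0.419 (M1) and 0.346 (M2) across genes, and those of different numbers at 0.0628 or below, so the numbers, which come from the labels, were treated as pairs. What a number marks is not stated. No libraries were as alike as sampling noise.

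The members, role groups, marker and pathway lists were chosen with earlier results of these data known. Levels were given for members that passed the filter. Statistics were given for members with a log2 fold change of at least 0.5 in size or an unadjusted p under 0.05 and for the 5 most abundant ligands and 5 most abundant receptors per exon length. *Nr1h4* was named as the targeted gene. Values of 1 tested member and of 1 B cell marker are not reported here, though both enter the counts and sums.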

Additional observations from a re-analysis of the deposited data

How the results depend on the processing

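With the replicate block (paired libraries), 23 genes passed an adjusted p of 0.05 in edgeR in place of 0, 1 member passed (*Cxcl10*), and 9 members had an unadjusted p under 0.05 in place of 5. The number of genes passing was 177 with DESeq2, 4 with exon counts, 8 with an acinar term and 21 with an immediate early term, with 0 members among them under any of these. Members with an unadjusted p under 0.05 numbered 3 of 27 without the sex term (9.34% of all genes), 2 of 28 in males alone (8.28%), 9 of 52 with no filter (8.76%), 9 of 27 with the immediate early term (10.7%), and 2 to 7 with each library left out in turn (5.78% to 14.7%). Members without overlap of the genotypes, in either direction, numbered 2 of 27 as reported (15.4% of all genes), 6 of 28 in males alone (42.8%), 6 of 52 with no filter (13.1%), 1 of 16 with at least 10 counts in every library (15.7%), 0 of 22 with exon counts (14.4%), and 3 to 9 with a library left out (21.1% to 35.1%), where fewer libraries make overlap rarer. The median log2 fold change of members ran from 0.08 (without FXR+/+ M2) to 0.60 (without FXR+/+ M1). For sex, DESeq2 called 83 genes and the filter of 10 counts in every library left 1, and DESeq2 called 3 genes for the interaction.

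Among named members the sign changed for *Ccl19* in males alone (0.16) and with exon counts (0.41), for *Ccl27a* (-0.03) and *Cxcr4* (-0.05) with library size alone, for *Ccl3* (-0.38) and *Cxcr4* (-0.39) with the acinar term, and for *Ccl3* (-0.03) and *Cxcr4* (-0.16) with the immediate early term. With each library left out in turn, the log2 fold change ran from -1.16 to 0.16 for *Ccl19*, -1.95 to 0.43 for *Cxcl13*, -0.65 to 1.51 for *Ccl3*, -0.57 to 2.05 for *Ccl4*, 0.20 to 2.21 for *Cxcl1*, -0.35 to 0.58 for *Cxcr4*, -0.32 to 3.28 for *Cxcl2* and -0.15 to 0.42 for *Ccr10*. The exon counts of *Ccl19* all lay on a separate chromosome 4 sequence outside its RefSeq gene, with each exon listed more than once. They are therefore no second measure of that gene. The cause of the other changes was not tested. The block changed no other call among members, and among listed genes it also called *Nr1h4*, *Oas2*, *Rsad2* and *Cmpk2*. Low counts limit *Ackr1*, *Cxcl9* and all members that were not tested.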
